A study of Danio rerio with 15 samples.

Results

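Zebrafish brain tumors and normal brain are compared here for 8 genes of the helix-loop-helix superfamily. They are 5 Id genes (id1, id2a, id2b, id3 and id4) and 3 NeuroD genes (neurod1, neurod2 and neurod4). They were picked by symbol from a table of 22513 genes, and all 8 were found. ID2 (ENSDARG00000055283) stands in the symbol table without its paralog letter and is called id2a here, since id2b has an entry of its own. The members were not chosen by a threshold on their levels, and all 8 passed the filter on low counts.

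The data are oligo dT RNA sequencing libraries of 7 brain tumors, which the submitters describe as driven by NRAS and of the CNS-PNET type (a primitive neuroectodermal tumor of brain or spinal cord), and of 8 normal brains. The tumors are dissected tumor tissue, and the normal samples are whole brain. The labels state no promoter for NRAS, no other allele, no age and no statement that each library is a separate fish, so a p-value measures only the spread between these samples. Library totals ran from 13605588 to 21347976 counts.

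Basic helix-loop-helix (bHLH) factors bind DNA as dimers. Proneural and neuronal differentiation factors, NeuroD among them, pair with broadly expressed E proteins and start or carry forward neuronal differentiation. Id proteins have the helix-loop-helix but no DNA-binding basic region, so a dimer of Id and E protein cannot bind DNA, and high Id activity is known for holding progenitors back from differentiation. In vertebrates Id genes are also well known targets of BMP signals acting through Smad proteins.

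In 8 libraries genes of other tissues or a low neuronal level bear on the comparisons. Muscle genes summed to 967, 1011, 974 and 2617 CPM in brain tumors 5, 6, 12 and 14, while brain tumors 7, 8 and 13 had 27.7 to 120 CPM and normal brain 26.4 to 347 CPM, and 6 of 8 tested were higher in the tumors (CPM is counts per 1000000 library counts, after TMM scaling). The mean of 10 skin genes was 5.93 log2 CPM in brain tumor 12 and 5.26 in normal brain 4, while the remaining 6 tumors had 0.096 to 3.64 and the remaining 7 normal brains 1.33 to 3.26. Liver genes were high in normal brain 1 and genes of photoreceptors in normal brain 2. The lowest pan-neuronal level of the 15 libraries was that of brain tumor 13, a mean of 2.31 log2 CPM over 16 genes. The other 6 tumors had 4.41 to 6.45 by this measure, and the normal brains had 8.29 to 8.61. All 16 pan-neuronal genes were lower in the tumors and 10 of 10 genes of dividing cells were higher, where 33.4% of all tested genes were lower and 43.5% higher. Of the microglia and macrophage genes 11 of 12 were higher (median log2 fold change 2.27), and they summed to 1452 to 2704 CPM in brain tumor and 374 to 599 CPM in normal brain. Of the oligodendrocyte lineage genes 8 of 13 were higher and 2 lower (median 2.06), with sums of 12846 to 37369 CPM in brain tumor and 12192 to 18637 CPM in normal brain. Of 16 radial glia and astroglia genes 7 were higher and 4 lower (median 0.50). The part of these cell types in the values of the members and of the other lists was not tested. In bulk tissue, fewer cells of a type and less RNA per cell cannot be told apart.

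Of the 8 members, 2 were higher and 5 lower in brain tumor by edgeR's quasi-likelihood test at a Benjamini-Hochberg adjusted p below 0.05 over 19260 tested genes. The higher members were id2b and id3, the lower ones id2a, id4, neurod1, neurod2 and neurod4, and id1 did not pass. Over all tested genes 43.5% were higher and 33.4% were lower, so a call as such is common in this comparison. Every tumor lay above every normal brain for 1 member (id3), as it did for 27.2% of all tested genes. Every tumor lay below every normal brain for 4 members (id4 and the NeuroD genes), as it did for 24.6%. Past a log2 fold change of 1 stood the same 1 higher and the same 4 lower members, beside 27.3% and 25% of all tested genes. The median log2 fold change of the members was -1.65, beside 0.21 over all tested genes. Without normal brain 1, 2 and 4 and brain tumor 13, 1 member was higher and 5 were lower, because id2b no longer passed (adjusted p = 0.0768 in edgeR). Without brain tumors 5, 6, 12 and 14 the calls were those over all libraries, 2 higher and 5 lower.

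**Figure D1:**
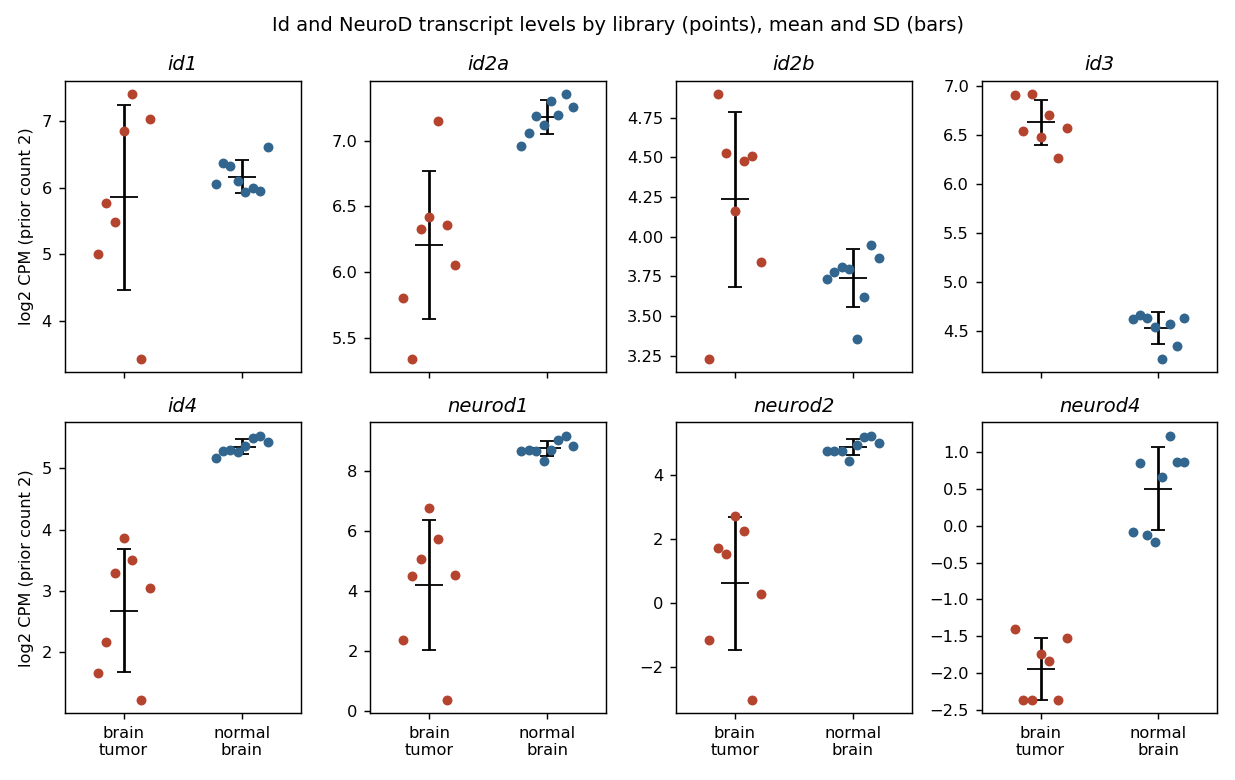
Level of each of the 8 genes in every library, as log2 CPM with a prior count of 2 (y axes, each with its own range), for 7 brain tumors (left in each panel) and 8 normal brains (right). Points are libraries and bars are the mean and SD. Tumors and normal brains do not overlap for id3, id4, neurod1, neurod2 and neurod4, and the tumors are the more spread out for every gene except neurod4.

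The 5 Id genes did not move together. The clearest increase was in id3 (ENSDARG00000054823), an inhibitor of E proteins in progenitor and vascular cells. It had 76.9, 95.4 and 121 CPM as the lowest, median and highest tumor value, against 18.5, 24.2 and 25.3 CPM in normal brain. The groups were thus separated by a wide gap, and the log2 fold change was 2.11 ± 0.11 (SE, adjusted p = 1.77e-10 in edgeR), a 4.32-fold difference. Of the 8 members it also had the most even level among the tumors, with an SD of 0.23 log2 CPM, and only 9.34% of the tested genes had a smaller one. In brain tumor 13, where most neuronal genes were lowest, id3 still had 76.9 CPM.

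The opposite was measured for id4 (ENSDARG00000045131), the Id gene known for its expression in neural stem cells and neurons. Its lowest, median and highest values were 2.203, 8.15 and 14.4 CPM in brain tumor, against 35.6, 39.9 and 46.1 CPM in normal brain. All 7 tumors were below all 8 normal brains, and the log2 fold change was -2.43 ± 0.33 (adjusted p = 4.95e-06 in edgeR), a 5.38-fold difference.

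The id2 paralogs split. For id2a the values were 40.4, 80.3 and 142 CPM in brain tumor, against 124, 146 and 163 CPM in normal brain. Only brain tumor 12, the highest of its group, reached into the normal range, and the log2 fold change was -0.88 ± 0.20 (adjusted p = 0.000728 in edgeR). For id2b (ENSDARG00000029544) they were 9.26, 22.2 and 29.7 CPM in brain tumor, against 10.1, 13.7 and 15.3 CPM in normal brain. The lowest tumor was below every normal brain, and the log2 fold change was 0.57 ± 0.19 (adjusted p = 0.0127 in edgeR). With median-ratio (RLE) size factors, which put the median of all tested genes at 0.02 in place of 0.21, id2b did not pass (0.38, adjusted p = 0.0884), nor did it in the authors' deposited table (0.37, adjusted p = 0.0946).

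No call was made for id1 (ENSDARG00000040764), the best known BMP target among the Id genes, whose tumors lay on both sides of normal brain. It had 32.1, 54.4, 44.7, 115, 168, 10.7 and 131 CPM in brain tumors 5, 6, 7, 8, 12, 13 and 14, against 60.8 to 97.6 CPM in normal brain. Tumors 8, 12 and 14 were above the highest normal brain and the other 4 were below the lowest, so no tumor fell inside the normal range. The group means were 79.4 ± 58.6 CPM in brain tumor and 72.6 ± 12.9 CPM in normal brain (SD, n = 7 and 8), with a log2 fold change of 0.13 ± 0.41 (adjusted p = 0.78 in edgeR). The SD over the tumors, 1.38 log2 CPM, was larger than that of 90.2% of the tested genes. The sign of the difference turned with median-ratio size factors (-0.06), and also without brain tumors 5, 6, 12 and 14 (-0.34, adjusted p = 0.527 in edgeR), and the authors' deposited table has -0.07 (adjusted p = 0.884).

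Endothelial genes, which mark a cell type where id1 is known to be expressed, varied over the tumors in a like order. The mean of the 15 genes of that list was 4.39, 4.11 and 3.85 log2 CPM in brain tumors 12, 14 and 8, the 3 with the most id1, and 3.65, 3.24, 3.18 and 2.51 in brain tumors 6, 5, 7 and 13. The order of the tumors was the same by both measures except that 5 and 7 changed places. In normal brain the orders differed more. Normal brain 15 ranked 1 by id1 and 6 by the endothelial mean, and normal brain 4 ranked 4 and 1. Brain tumor 6 lay within the endothelial range of normal brain (3.26 to 3.72 log2 CPM), although its id1 level (54.4 CPM) was below every normal brain. Between the groups 3 of the 15 endothelial genes were higher, 4 were lower and 8 did not pass. Over all tested genes 43.5% were higher and 33.4% lower. The summed level of the 15 ran from 126 to 369 CPM in brain tumor and from 239 to 293 CPM in normal brain. Of the defining genes, cdh5 averaged 26.6 CPM in brain tumor and 30.2 CPM in normal brain and did not pass (adjusted p = 0.501 in edgeR), while kdrl (-0.72 ± 0.24) and flt1 (-1.11 ± 0.23) were lower, as were KDR and tek. The higher ones were EGFL7 (2.002 ± 0.19), plvapa (2.89 ± 0.53) and a copy of CLDN5 (ENSDARG00000014059, 2.29 ± 0.30). For EGFL7 and this CLDN5 copy every tumor was above every normal brain, as it was for 27.2% of all tested genes. The part of endothelial RNA in the id1 values was not tested, and this relation was chosen after its values were seen.

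An unnamed gene, ENSDARG00000096939, followed id1 count for count. It held between 63.7% and 68.8% of the id1 count in each of the 15 libraries. No source used here says whether the authors' counting assigned the same reads to both genes, so the id1 count is uncertain in that respect.

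**Figure D2:**
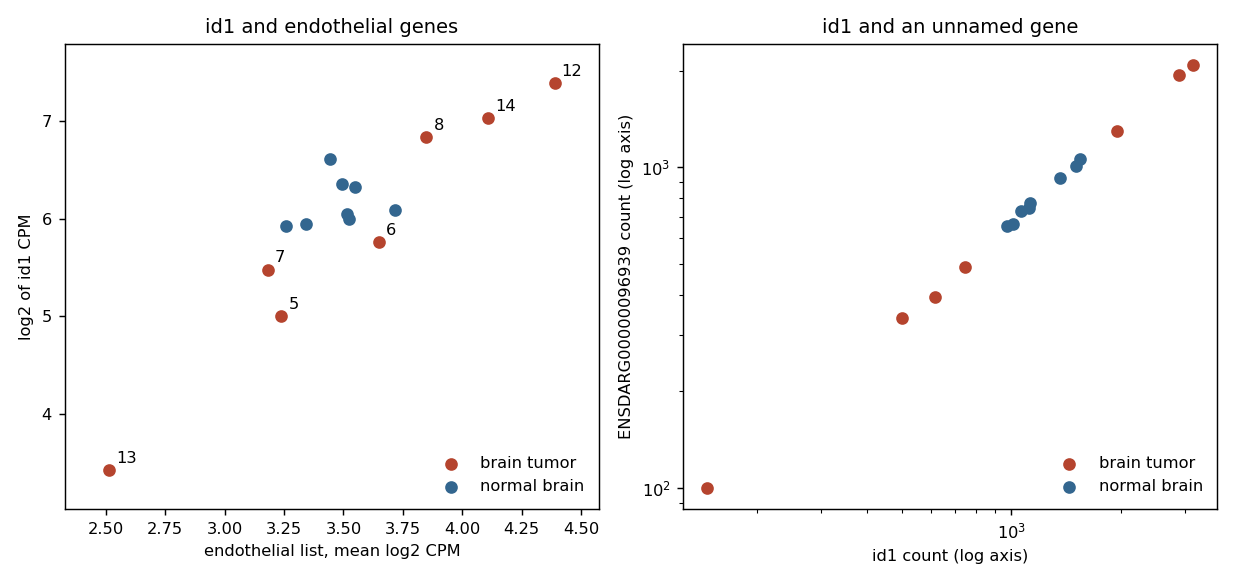
Left, log2 of the id1 CPM (y axis) against the mean log2 CPM of 15 endothelial genes (x axis) in each library, with the numbers of the brain tumors. Right, the count of ENSDARG00000096939 against the count of id1 on log axes. Brain tumors 8, 12 and 14 are the highest and brain tumor 13 the lowest of the tumors in both measures on the left, and on the right all 15 libraries lie on a line.

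Levels of different genes can be set side by side per kilobase of gene, as in the authors' FPKM (counts per kilobase and per 1000000 counts). Summed over the 5 Id genes, the FPKM came to 222 ± 82.0 in brain tumor and 221 ± 14.1 in normal brain (SD, n = 7 and 8), with a range of 114 to 355 in the tumors and 202 to 250 in normal brain. The make-up of that sum differed. The gene id3 gave 40.7% ± 12.5 of it in brain tumor and 9.29% ± 1.06 in normal brain, while id4 gave 2.64% ± 1.20 in brain tumor and 16.1% ± 1.39 in normal brain. For id2a the shares were 19.2% ± 6.57 in brain tumor and 36.8% ± 3.27 in normal brain. The share of id1 was 30.9% ± 16.1 in brain tumor and 33.6% ± 3.91 in normal brain, and that of id2b was 6.57% ± 3.43 in brain tumor and 4.26% ± 0.459 in normal brain. The shares of id3, id4 and id2a did not overlap between the groups. For id2a the gap was small, with at most 32.1% in brain tumor and at least 33.2% in normal brain. Shares of a sum depend on each other, and this sum holds the uncertain id1 count. Shares in sums of other genes were not compared.

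**Figure D3:**
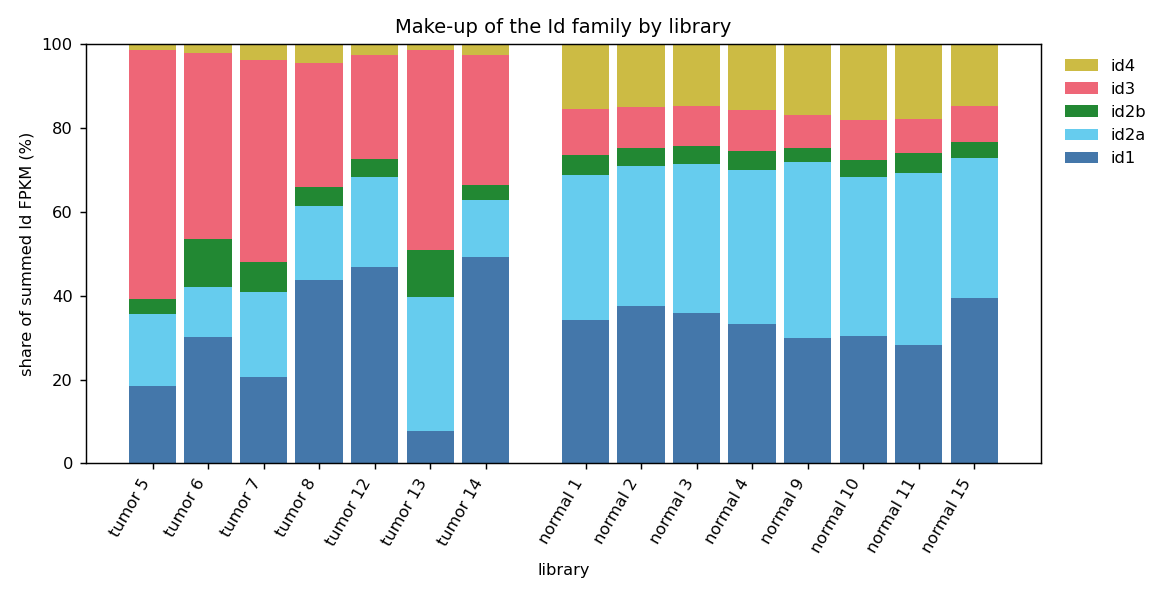
Share of each Id gene in the summed FPKM of the 5 Id genes, in percent, for each of the 7 brain tumors (left) and 8 normal brains (right). The share of id3 is 24.9% to 59.2% in the tumors and 7.82% to 10.9% in normal brain, and id4 is reduced to 1.34% to 4.62% in the tumors, against 14.7% to 18.0% in normal brain.

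Ratios of paralogs within a library do not depend on how libraries are scaled, and 13 were compared between the groups with an exact two-sided permutation test over the 15 libraries. At an adjusted p below 0.05, 8 of 13 passed, each at the smallest p that the 6435 arrangements can give (0.000155, adjusted 0.000253 over the 13). All 8 were pairs of Id genes, and each except id2a to id2b held id3 or id4, so they are not 8 separate results. Pairs of other genes were not compared. The log2 ratio of id3 to id4 was 3.98 ± 0.99 in brain tumor and -0.82 ± 0.24 in normal brain, a difference of 4.80. For this pair the groups were bound to be apart, since every tumor was above every normal brain for id3 and below for id4. That of id2a to id2b was 1.98 ± 0.75 in brain tumor and 3.45 ± 0.23 in normal brain, a difference of -1.47. The ratios of id1 to id2a (0.66, exact p = 0.203, adjusted 0.220) and of id1 to id2b (-0.81, exact p = 0.151, adjusted 0.178) did not pass. Brain tumor 13 decided the first of these, which passed without it (1.09, adjusted exact p = 0.00481), and without brain tumors 5, 6, 12 and 14 its difference was -0.10.

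The NeuroD genes act after the proneural step, in differentiating and mature neurons, and all 3 were lower in brain tumor. The gene neurod1 (ENSDARG00000019566), a marker of cerebellar granule neurons that is also expressed in photoreceptors, had 5.08, 22.6, 33.7, 109, 52.7, 1.18 and 23.3 CPM in brain tumors 5, 6, 7, 8, 12, 13 and 14, against 325 to 578 CPM in normal brain. The highest tumor was far below the lowest normal brain, and the log2 fold change was -3.63 ± 0.65 (adjusted p = 8.54e-05 in edgeR), a 12.4-fold difference. Its SD over the tumors, 2.15 log2 CPM, exceeded that of 98.3% of the tested genes.

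For neurod2 (ENSDARG00000016854), a factor of excitatory neurons, the lowest, median and highest values were 0, 2.75 and 6.41 CPM in brain tumor, against 21.3, 28.6 and 37.3 CPM in normal brain. Brain tumor 13 had 0 counts, where 3 counts would be 0.220 CPM. All tumors were below all normal brains, and the log2 fold change was -3.49 ± 0.58 (adjusted p = 4.33e-05 in edgeR). Least abundant was neurod4 (ENSDARG00000003469), which is known from retinal and early neuronal differentiation. It had 18 counts over the 7 tumors, 1 to 5 in each, and 186 counts over the 8 normal brains, 12 to 37 in each. The log2 fold change was -3.12 ± 0.37 (adjusted p = 1.11e-06 in edgeR), and tumor values this close to a limit of 3 counts carry little information on size.

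The 3 NeuroD genes summed to 16.3 ± 17.3 FPKM in brain tumor and 207 ± 34.2 FPKM in normal brain. The log2 ratio of neurod1 to neurod2 was 3.90 ± 0.70 in brain tumor and 3.89 ± 0.07 in normal brain, a difference of 0.01 (exact p = 0.966, adjusted 0.966), which does not show that they moved alike, since the SD over the tumors was 0.70. The ratios to neurod4 did not pass at a pseudocount of 0.5 counts (adjusted exact p = 0.0714 for neurod1 and 0.171 for neurod2) and passed at a pseudocount of 2 (0.00426 and 0.0109). That of neurod1 to neurod4 (-1.60) also passed without brain tumor 7, 8 or 12, at adjusted exact p-values of 0.0385, 0.0130 and 0.0447. The genes of granule neurons, which neurod1 marks, were lower in 13 of 14 cases with neurod1 among them. Of all tested genes 33.4% were lower and 43.5% higher. The median log2 fold change of the 14 was -3.26, beside 0.21 over all tested genes. ETV1, named after its values were seen, was higher (1.16 ± 0.35). Without normal brain 1, 2 and 4 and brain tumor 13, ETV1 did not pass (0.53 ± 0.26, adjusted p = 0.0864 in edgeR) and 0 of these genes were higher. The 16 pan-neuronal genes had a median of -3.33. Normal samples were whole brain and the tumors dissected tissue, and the part of granule and other neurons in the NeuroD values was not tested. Photoreceptor and pineal genes summed to 224 CPM in normal brain 2, against 5.02 to 59.6 CPM in the tumors and 9.83 to 18.2 CPM in the other normal brains, and neurod1 in normal brain 2 (415 CPM) was within the range of the other normal brains.

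By level per kilobase the order of the members also differed between the groups. In brain tumor id3 (82.5 ± 14.4 FPKM, n = 7) and id1 (78.9 ± 60.2) came first, then id2a (40.9 ± 17.5), neurod1 (14.6 ± 15.9), id2b (12.95 ± 4.37), id4 (6.24 ± 3.96), neurod2 (1.62 ± 1.51) and neurod4 (0.0746 ± 0.0418). In normal brain neurod1 led with 187 ± 30.9 FPKM (n = 8), followed by id2a (81.1 ± 6.58), id1 (74.6 ± 12.6), id4 (35.5 ± 2.77), id3 (20.5 ± 2.19), neurod2 (19.1 ± 3.22), id2b (9.41 ± 1.04) and neurod4 (0.731 ± 0.283). Neighbours that changed places from library to library were, in the tumors, id3 and id1 (id3 above in 4 of 7), id1 and id2a (6 of 7), neurod1 and id2b (2 of 7) and neurod2 and neurod4 (6 of 7). In normal brain they were id2a and id1 (5 of 8) and id3 and neurod2 (5 of 8).

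E proteins are the dimer partners for which Id proteins compete, and 2 of the 3 genes measured were higher in the tumors. Over all tested genes 43.5% were higher, so a count from 3 genes says little about E proteins as a group. The E protein gene tcf3a (ENSDARG00000005915), a copy of the gene for E12 and E47, had 59.6 ± 5.80 CPM in brain tumor and 10.8 ± 1.07 CPM in normal brain (log2 fold change 2.47 ± 0.09, adjusted p = 1.21e-11 in edgeR). TCF12 (ENSDARG00000004714), which encodes HEB, had 412 ± 112 CPM in brain tumor and 69.6 ± 5.31 CPM in normal brain (2.56 ± 0.18, adjusted p = 3.15e-09). For both genes every tumor was above every normal brain, as it was for 27.2% of all tested genes. The other Tcf3 copy, tcf3b (ENSDARG00000099999), had 132 ± 32.4 CPM in brain tumor and 148 ± 21.3 CPM in normal brain and did not pass (-0.17 ± 0.15, adjusted p = 0.313), but was lower with median-ratio size factors (-0.36, adjusted p = 0.0312) and without brain tumors 5, 6, 12 and 14 (-0.42, adjusted p = 0.0450). The E protein gene tcf4 was not analysed here.

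Among 13 other tested bHLH genes, most of them neuronal, 12 were lower in brain tumor and 0 were higher. Of all tested genes 33.4% were lower and 43.5% higher. The median log2 fold change of the 13 was -3.21, beside 0.21 over all tested genes. In all 12 every tumor lay below every normal brain, as it did for 24.6% of all tested genes. DESeq2 likewise called 0 higher, and 0 were higher in edgeR at an unadjusted p below 0.05. The cerebellar progenitor gene atoh1c had 0.0404 ± 0.0720 CPM in brain tumor and 1.25 ± 0.339 CPM in normal brain (-4.63 ± 0.56). Its tumor mean was below the limit of 3 counts, so the size of this fold change carries little information. TAL1, a factor of blood and of midbrain inhibitory neurons, had 6.06 ± 5.23 CPM in brain tumor and 56.1 ± 13 CPM in normal brain (-3.21 ± 0.41). BHLHE40 and BHLHE41, repressors tied to the circadian clock, had log2 fold changes of -1.23 ± 0.17 and -2.25 ± 0.31. The exception, atoh8, did not pass (0.80 ± 0.43, adjusted p = 0.101 in edgeR, -0.066 without brain tumor 13, and higher at 1.39 with an adjusted p of 0.0220 without brain tumors 5, 6, 12 and 14), at 9.87 ± 11.3 CPM in brain tumor and 5.66 ± 0.611 CPM in normal brain. A further 3 of the genes found (ATOH1, PTF1A and msgn1) had too few counts to be tested.

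**Figure D4:**
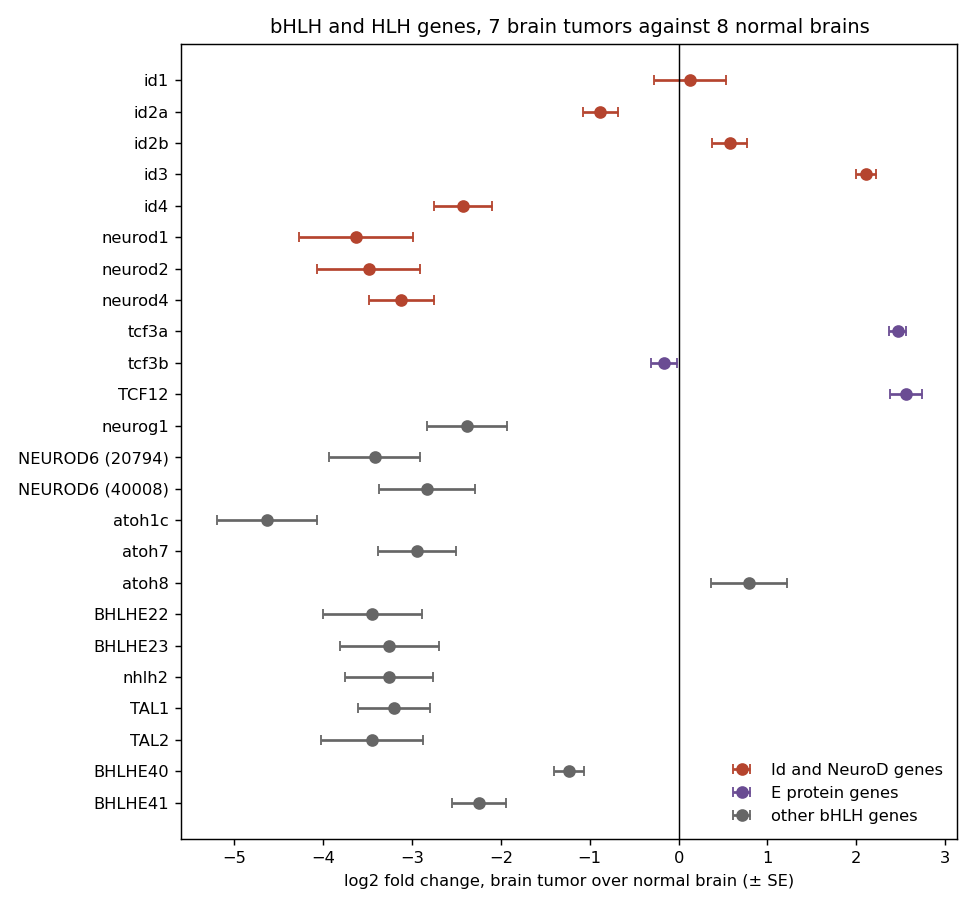
Log2 fold change of brain tumor over normal brain (x axis, with SE) for the 8 Id and NeuroD genes, 3 E protein genes and 13 other bHLH genes (the digits after NEUROD6 are the end of its gene ID). The Id genes and the E protein genes lie on both sides of 0, while the other bHLH genes lie below 0 except atoh8, whose value of 0.80 did not pass.

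Of 26 tested BMP and Smad pathway genes, among them the inputs known to switch on Id genes, 9 were higher, 10 were lower and 7 did not pass, with a median log2 fold change of -0.20. These shares are near those over all tested genes (43.5% higher and 33.4% lower). DESeq2 tested more genes, put the median of all tested genes at 0.014 in place of 0.21, and had 17 of the list lower. Among the 8 receptor genes, a grouping made after the values were seen, 6 were lower, 1 was higher and 1 did not pass. Of all tested genes 33.4% were lower and 43.5% higher. Both copies of BMPR2, the type II BMP receptor, were lower, ENSDARG00000020057 with 17.0 ± 1.33 CPM in brain tumor and 51.6 ± 5.44 CPM in normal brain (-1.60 ± 0.09) and ENSDARG00000011941 by a log2 fold change of -0.94 ± 0.12. The type I receptor genes bmpr1bb (-2.75 ± 0.42) and acvr1l (-0.53 ± 0.09) were lower as well, with bmpr1ba (-1.55 ± 0.40) and a copy of BMPR1A (ENSDARG00000105045, -0.79 ± 0.25). The other BMPR1A copy (ENSDARG00000019728) was higher, with 46.5 ± 12.6 CPM in brain tumor and 25.0 ± 1.30 CPM in normal brain (0.89 ± 0.15, adjusted p = 4.58e-05 in edgeR) and every tumor above every normal brain. The receptor gene acvrl1 did not pass (0.14 ± 0.18, adjusted p = 0.469). Of the signal transducers, SMAD5 had 51.0 ± 34.4 CPM in brain tumor and 12.02 ± 1.40 CPM in normal brain (2.085 ± 0.31), SMAD1 was higher by 0.84 ± 0.25 but did not pass in libraries 9 to 15 alone (0.34, adjusted p = 0.334) or without brain tumors 5, 6, 12 and 14 (0.59, adjusted p = 0.123). The third transducer of BMP signals, smad9, had 23.1 ± 5.20 CPM in brain tumor and 24.6 ± 2.29 CPM in normal brain and did not pass (-0.09 ± 0.13, adjusted p = 0.528). Both copies of the shared partner SMAD4 were higher, ENSDARG00000012649 by 1.04 ± 0.13 and ENSDARG00000075226 by 0.76 ± 0.14. SMAD1, SMAD5, smad9, acvrl1, bmpr1ba, the BMPR1A copies and the second SMAD4 copy were named after their values were seen, as were the endothelial genes. BAMBI (ENSDARG00000055381), a decoy receptor that is itself a BMP target, had 118 ± 65.5 CPM in brain tumor and 4.98 ± 1.46 CPM in normal brain (4.56 ± 0.34, adjusted p = 7.14e-09 in edgeR). The other BAMBI copy (ENSDARG00000099677) was higher by 1.99 ± 0.31, with groups that overlapped. SMAD7 was higher by 0.78 ± 0.24 and did not pass without normal brain 1, 2 and 4 and brain tumor 13 (0.55, adjusted p = 0.0738 in edgeR). A copy of SMAD6 (ENSDARG00000053209) was lower (-1.02 ± 0.32), and the other (ENSDARG00000031763) did not pass (-0.08 ± 0.20, adjusted p = 0.731). SMAD6, SMAD7 and this BAMBI copy were also named after their values were seen.

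Genes that proneural factors switch on, or that mark the steps after them, were lower in 21 of 32 cases and higher in 10, with a median log2 fold change of -1.33, where 33.4% of all tested genes were lower and 43.5% higher. Of these 32, NEUROD6 (both copies) and nhlh2 also stand among the 13 other bHLH genes. ELAVL3 and ELAVL4 also stand among the pan-neuronal genes, so these lists are not separate. The corepressor gene CBFA2T3 had 21.7 ± 8.74 CPM in brain tumor and 125 ± 20.8 CPM in normal brain (-2.52 ± 0.23), and its relative RUNX1T1 had a log2 fold change of -3.55 ± 0.37. ELAVL4, a neuronal RNA-binding protein, had 102 ± 54.7 CPM in brain tumor and 782 ± 68.1 CPM in normal brain (-2.94 ± 0.29), and a copy of the neuronal transcription factor MYT1 (ENSDARG00000074030) fell by 2.73 on the log2 scale, while its other copy (ENSDARG00000102879) was higher by 0.67 ± 0.15. In the other direction a copy of STMN1 (ENSDARG00000004169), which destabilises microtubules in dividing and immature cells, had 142 ± 41.0 CPM in brain tumor and 14.5 ± 3.47 CPM in normal brain (3.29 ± 0.20), and sox4a, a factor of immature neurons, was higher by 2.03 ± 0.18. The other STMN1 copy (ENSDARG00000033655) was lower, at 810 ± 317 CPM in brain tumor and 1428 ± 137 CPM in normal brain (-0.82 ± 0.22). Among the SOX4 and SOX11 entries of the list, SOX4 ENSDARG00000004588 was higher (2.02 ± 0.18) and SOX4 ENSDARG00000098834 was lower (-1.34 ± 0.16). Both copies of SOX11 were lower (ENSDARG00000095743, -1.98 ± 0.24, and ENSDARG00000077811, -0.51 ± 0.20). HES6 was higher in both copies (ENSDARG00000019335, 1.06 ± 0.13, and ENSDARG00000007097, 3.68 ± 0.61). So were GADD45G (ENSDARG00000019417, 1.81 ± 0.19, and ENSDARG00000016725, 2.18 ± 0.50) and cdkn1ca (2.46 ± 0.44). INSM1 was lower in both copies (ENSDARG00000091756, -3.27 ± 0.43, and ENSDARG00000053301, -2.23 ± 0.33), as were dlb (-1.32 ± 0.34) and dll4 (-0.53 ± 0.19). The second copies of MYT1 and STMN1, these SOX4 and SOX11 entries and the genes from HES6 to dll4 were named after their values were seen. The Notch ligand gene dlc did not pass (0.21 ± 0.31, adjusted p = 0.536 in edgeR) and was lower without brain tumors 5, 6, 12 and 14 (-0.56, adjusted p = 0.0266).

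The tumors differed among themselves, and the question was whether the members followed the level of pan-neuronal genes in each tumor. Each of the 8 genes was set against the mean of the 16 pan-neuronal genes and against that of 10 cell cycle genes over the 7 tumors, 16 relations in all, with exact permutation p-values adjusted over the 16. The genes neurod1 (Pearson r = 0.95, exact p = 0.00278, adjusted 0.0222; Spearman rho = 0.75, exact p = 0.0663, adjusted 0.352) and neurod2 (r = 0.94, exact p = 0.00139, adjusted 0.0222; rho = 0.93, exact p = 0.00675, adjusted 0.108) rose with the pan-neuronal mean by Pearson's r and not by the adjusted Spearman test. Without brain tumors 8 and 13, the 2 farthest from the median, r was 0.80 for neurod1 and 0.87 for neurod2 over 5 tumors. Over the same 5 tumors r was 0.88 for id2b, whose r over all 7 was 0.05. It was -0.76 for id3, -0.60 for neurod4 and 0.12 for id2a, so an r of this size over 5 tumors says little. Over 6 tumors neither neurod1 nor neurod2 passed when brain tumor 5, 8, 12 or 13 was left out (adjusted exact p of 0.0667 to 0.222), with r of 0.87 to 0.97. Next came id1 (r = 0.86, exact p = 0.0167, adjusted 0.0667; rho = 0.71, exact p = 0.0881, adjusted 0.352; r = 0.59 without the 2 farthest) and id4 (r = 0.81, exact p = 0.00972, adjusted 0.0519; rho = 0.75, exact p = 0.0663, adjusted 0.352; r = 0.49 without the 2 farthest), which did not pass. The relation of id4 did pass without brain tumor 6 (r = 0.92, adjusted exact p = 0.0148). No member passed against the cell cycle mean, where the smallest exact p was 0.129 (neurod2, r = -0.60, adjusted 0.412). Genes other than the members were not set against these means, so no share over all tested genes is known. The neurod2 value of brain tumor 13 rests on 0 counts, and its log2 CPM (-3.05) is set by the prior count of 2.

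**Figure D5:**
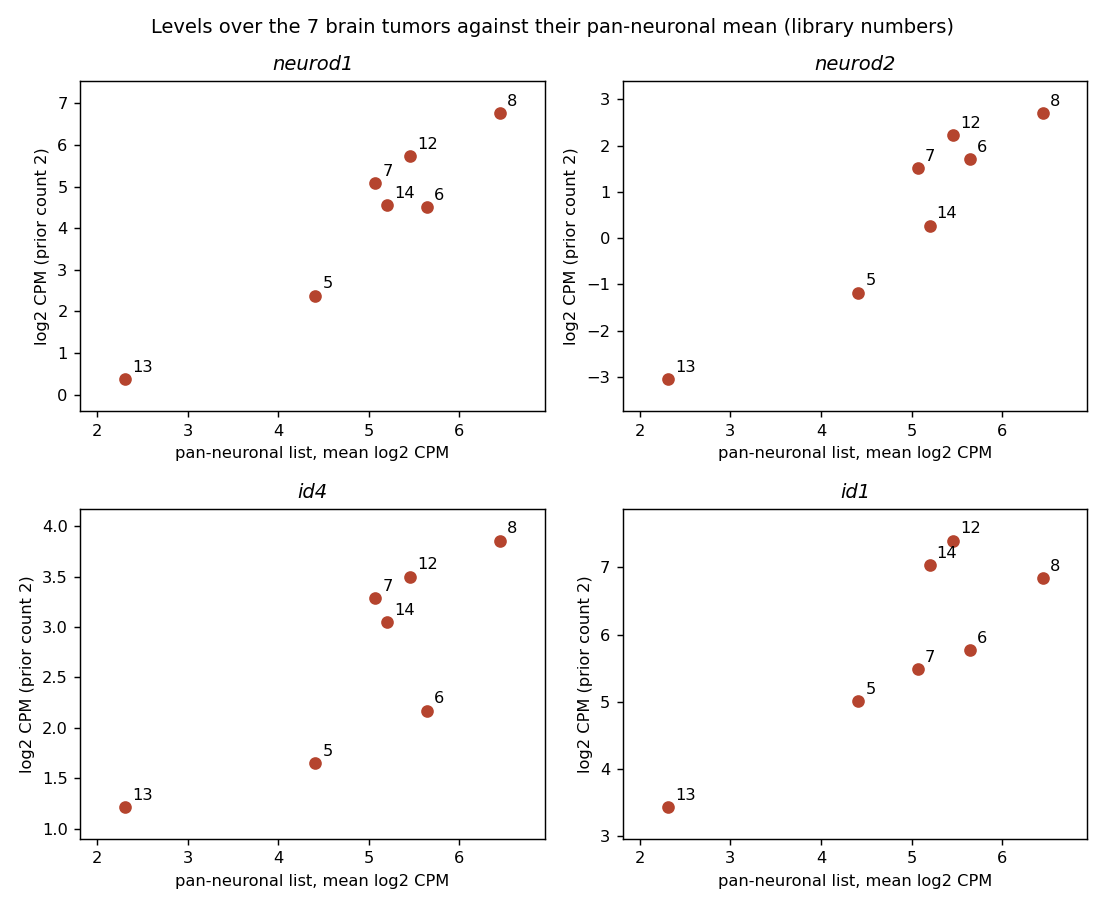
Log2 CPM (prior count 2) of neurod1, neurod2, id4 and id1 (y axes) against the mean log2 CPM of 16 pan-neuronal genes (x axes) in the 7 brain tumors, with library numbers. Brain tumor 13 is lowest in all 4 panels and brain tumor 8 is highest for neurod1, neurod2 and id4, while id1 is highest in brain tumor 12.

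The genes most alike in pattern to each member were sought by the correlation of deviations from the group mean over the 15 libraries, as a description. For neurod1 they were SLC17A7, the vesicular glutamate transporter of excitatory neurons (r = 0.99), and ZIC1, a factor of granule neurons (r = 0.99), with r of 0.99 and 0.98 without brain tumor 13. For neurod2 they were strip2 and SYT6 (0.98 each), for id4 DCUN1D4 (0.98) and si:ch73-119p20.1 (0.96), and for id1, after the unnamed gene above, dtnbp1b (0.98). The closest to id3 were DNAJA2 (0.93) and RPL24 (0.87), to id2a TMEM256 and DAAM2 (0.84 each), to id2b nacad (0.87), and to neurod4 SP4 (0.77) and PHRF1 (0.75). Each is the highest or second highest of 13328 or 13329 genes compared.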

How the data were processed

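Polyadenylated RNA of 7 brain tumors and 8 normal brains was sequenced as single reads of 50 cycles. The submitters' processing notes name Novoalign 2.08.01 and DESeq2. Counter, build and annotation: not given in the sources used. Each deposited count is a whole number of reads for a gene, per the file headers. The authors' FPKM are these counts over the sum of that library and over a value fixed for each gene, as a check against the counts showed. That the value is gene length in kilobases, and the sum in units of 1000000, was taken from the name FPKM and not checked. The log2 fold change and the adjusted p-value columns are the authors' comparison of tumor over control, per the file headers. The 15 libraries all differed.

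Testing was done in R 4.3.3 with edgeR 4.0.16 (filterByExpr at 10 counts and a total of 15, TMM scaling, quasi-likelihood test on group, Benjamini-Hochberg over 19260 genes, threshold 0.05). CPM uses TMM-scaled library sizes, and log2 CPM has a prior count of 2. The FPKM are not TMM-scaled. The SE is the absolute log2 fold change over the square root of F. Ratios used counts plus 0.5. The limit for a count of 0 was 3 counts (0.141 to 0.220 per 1000000 library counts), for counting error only. The pipeline was tested on simulated data.

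Of the genes the selection rule holds 2, and 1 gene among those most alike to a member, are not reported here, and p-values of ratios and relations are adjusted over those reported, fewer than were first computed. The members, lists and tests were chosen with earlier results of these data known. List symbols were matched ignoring case, and where the symbol table drops the paralog letter every ID was taken. The gene dld was left out because its symbol is shared with a metabolic enzyme. Named were all members, every E protein, the 4 genes of smallest p in the direction with more calls and the 2 in the other from each further list, members of counts of 5 or fewer, and the 2 genes most alike to each member among those with a mean of at least 10 CPM. Alternatives were RLE, upper-quartile or no scaling, no filter, a filter at 5 CPM, DESeq2 1.42.0, limma-voom (limma 3.58.1), robust dispersions, each library left out, the 4 libraries in doubt (normal brain 1, 2 and 4 and brain tumor 13) left out, libraries 1 to 8 or 9 to 15 alone and, chosen after seeing the data, brain tumors 5, 6, 12 and 14 left out.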

Additional observations from a re-analysis of the deposited data

How the results depend on the processing

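Over 27 alternatives id2a, id3, id4, neurod1 and neurod2 kept their direction and call, as did neurod4 over the 26 that tested it (the filter at 5 CPM removed it). The members counted as lower ranged from 4 to 5. The call of id2b was lost with RLE factors, with DESeq2, without the 4 libraries in doubt and in libraries 1 to 8 or 9 to 15 alone, which left 1 member higher in each of these 5. The log2 fold change of id1 was -0.060 with RLE factors, -0.071 with DESeq2, -0.28 with limma-voom and -0.40 in libraries 1 to 8, and ran from -0.16 to 0.27 with each library left out. RLE factors put the median of all genes at 0.02 in place of 0.21. That of dlc was -0.0021 with DESeq2, -0.56 in libraries 1 to 8 and -0.19 to 0.34 with each library left out. That of atoh8 was -0.014 without the 4 libraries in doubt and -0.066 to 0.94 with each library left out. The log2 ratio of neurod1 to neurod2 differed by -0.33 with a pseudocount of 2, by -0.39 on FPKM, by -0.15 without the 4 libraries and by -0.18 to 0.19 with each library left out. Of the 13 ratios 8 to 10 passed. The number of relations past the threshold over the tumors ran from 0 to 3 with each tumor left out, and was 3 with RLE factors, where id4 passed (adjusted exact p = 0.0497). The r with the pan-neuronal mean then ran from -0.20 to 0.22 for id2a (0.037 with RLE factors), -0.15 to 0.54 for id2b, -0.82 to 0.56 for id3 and -0.26 to 0.47 for neurod4. With the cell cycle mean it ran from -0.76 to 0.33 for id1, -0.18 to 0.091 for id2a, -0.36 to 0.35 for id2b and -0.58 to 0.23 for neurod4. In list counts, 1 E protein gene was lower with RLE factors and with DESeq2. DESeq2 tested more genes and put the median of all genes at 0.014 in place of 0.21. It had 17 BMP and Smad genes lower, 1 photoreceptor gene higher and 4 lower, 1 liver gene lower and 1 skin gene lower. Without the 4 libraries 0 granule neuron genes were higher, 1 liver gene was lower and 6 skin genes were higher. Without brain tumors 5, 6, 12 and 14, left out after seeing the data, the log2 fold change was -0.34 for id1 and -0.56 for dlc, and the log2 ratio of id1 to id2a differed by -0.10. The same setting gave 1 E protein gene lower, 1 other bHLH gene (atoh8) higher, 1 liver gene lower, 4 skin genes lower and 1 muscle gene higher. The causes were not tested. No paired analysis was possible because the labels state no pairing of tumors with normal brains. Counts of 1 to 5 limit what can be said of neurod4 in the tumors.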
